A study of Mus musculus with 6 samples.

Results

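The 9 genes Hmgcs1, Mvk, Pmvk, Mvd, Idi1, Fdps, Fdft1, Sqle and Lss encode the enzymes that build HMG-CoA and carry mevalonate to lanosterol, the earliest sterol of cholesterol synthesis. They were found among 55401 gene IDs by their GENCODE mouse M21 symbols, and each matched a single ID. RNA of bulk cells isolated from the colonic lamina propria, the connective tissue under the gut epithelium where most intestinal immune cells reside, was sequenced in 6 libraries. The atorvastatin group (3 libraries) came from male Apc Min/+ mice of 5 to 6 weeks that were gavaged with 20 mg/kg of the drug on alternate days. The vehicle group (3 libraries) came from male Apc Min/+ mice of the same age gavaged with 2% Tween 80. All animals therefore carried the Min mutation in 1 copy of Apc, which predisposes to intestinal adenomas, and wild-type mice are not part of the comparison. Neither the length of treatment nor whether each library came from its own animal is stated, so the p-values below reflect library-to-library spread alone, which may be technical.

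Cells make HMG-CoA from acetyl-CoA units and reduce it to mevalonate, the step that statins block. Mevalonate is phosphorylated and decarboxylated to an isoprenoid unit, from which farnesyl diphosphate, squalene and then sterols are built, and farnesyl diphosphate also feeds protein prenylation, ubiquinone and dolichol. When sterols in the endoplasmic reticulum are low, the transcription factor SREBP2 is released from its membrane anchor and raises the transcription of this pathway, a response best known from the liver and from cultured cells. The gene of the statin-blocked enzyme is not analysed here. The comparison asks whether messenger RNA of the enzymes on either side of that step differed in the lamina propria of treated mice.

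The starts of these genes are shown for 4 members because SREBP2 acts at such promoters together with the factors NF-Y, which binds CCAAT, and Sp1, which binds GC boxes. RefSeq's promoter table (GRCm38.p6) held windows for 6 members (Hmgcs1, Mvk, Pmvk, Mvd, Idi1 and Lss). Each sequence is the 250 bases before RefSeq's start, called the annotated start here, 5′ to 3′ along the gene. Capitals mark exact matches on either strand to CACCCCAC (a sterol response element core), CCAAT or GGGCGG. RefSeq's starts can differ from the gene coordinates given below. The Idi1 window ends at 8885605, past that gene's start at 8885501, and all capitals in it lie past 8885501. The Lss window ends at 76531604, past that gene's start at 76531588. Hmgcs1 is shown as the most abundant member, Mvd as one of the 2 whose groups did not overlap, Idi1 as the most variable and Mvk for its many CCAAT matches.
Hmgcs1, chr13:119690101-119690350, plus strand: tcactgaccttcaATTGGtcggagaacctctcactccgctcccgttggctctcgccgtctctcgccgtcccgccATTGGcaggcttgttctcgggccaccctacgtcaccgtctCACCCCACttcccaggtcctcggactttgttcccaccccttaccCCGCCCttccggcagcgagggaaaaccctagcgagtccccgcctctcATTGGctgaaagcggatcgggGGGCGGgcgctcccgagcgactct
Mvk, chr5:114444019-114444268, plus strand: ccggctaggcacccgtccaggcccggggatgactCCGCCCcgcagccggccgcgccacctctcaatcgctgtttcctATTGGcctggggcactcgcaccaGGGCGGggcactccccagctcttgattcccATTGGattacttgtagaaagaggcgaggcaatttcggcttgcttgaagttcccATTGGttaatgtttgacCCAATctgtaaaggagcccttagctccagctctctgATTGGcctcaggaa
Mvd, chr8:122443423-122443672, minus strand: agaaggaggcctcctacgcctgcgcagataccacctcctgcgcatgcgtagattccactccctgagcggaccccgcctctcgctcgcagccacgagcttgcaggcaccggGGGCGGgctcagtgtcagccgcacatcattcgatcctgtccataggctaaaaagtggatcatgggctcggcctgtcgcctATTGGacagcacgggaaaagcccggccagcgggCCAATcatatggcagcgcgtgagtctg
Idi1, chr13:8885356-8885605, plus strand: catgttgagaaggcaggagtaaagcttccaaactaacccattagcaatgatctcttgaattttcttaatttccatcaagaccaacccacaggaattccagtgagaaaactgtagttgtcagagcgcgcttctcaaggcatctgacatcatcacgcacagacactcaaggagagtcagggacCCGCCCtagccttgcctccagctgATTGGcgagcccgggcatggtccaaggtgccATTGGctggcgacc

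At least 1 CCAAT match was present in a window of each of these 6 members, and 33.8% of all 32851 windows of this length hold one. Mvk had 5 matches, Hmgcs1 had 3, Mvd and Idi1 had 2 each, and Pmvk and Lss had 1 each; 0.213% of all windows hold 5 or more. The sterol response element core was matched in Hmgcs1 alone of the 6, from 136 bases before the annotated start, and 2.58% of all windows hold it. GGGCGG, which 32.7% of windows hold, was matched in Hmgcs1, Mvk, Mvd, Idi1 and Lss. The longer SRE-1 motif, found in 0.192% of windows, was matched in 0 members. Pmvk has an alternative start further downstream, whose window held 0 of these motifs. A match describes letters in a window and not binding.

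No member's level changed past the test under atorvastatin, and the differences had both signs. Sqle and Mvd lay higher in every atorvastatin library than in every vehicle library, by about 1.20-fold each, while Pmvk, Fdps, Idi1, Mvk and Fdft1 had differences below 0. In limma, 0 members passed after Benjamini-Hochberg adjustment over the 13590 genes tested. That adjusted threshold of 0.05 was passed by 0% of all genes, and at an unadjusted p under 0.05 there were 0 of the 8 tested members against 7.17% of all genes (3.13% higher and 4.04% lower with atorvastatin). Differences were above 0 in 3 of the 8 members and in 47% of all genes. The groups did not overlap, with higher values under atorvastatin, in 2 of 8 tested members against 5.53% of all genes. In the lower direction this held for 0 members against 8.85% of all genes, and for either direction for 14.4% of all genes. The median difference of the 8 members was -0.07 on the log2(FPKM + 1) scale, and that of all genes was -0.02. In bulk RNA, fewer cells of a type and less RNA per cell cannot be told apart.

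FPKM counts fragments relative to the length of the gene model and to the size of the library. The lengths used for these values are not stated, so members can be set side by side only roughly. In GENCODE the exons of Lss cover 10787 bases, against 1713 (Pmvk) to 5546 (Sqle) in the other members. Over all 6 libraries Hmgcs1 averaged 10.96 FPKM, Pmvk 8.21, Idi1 8.17, Fdft1 4.84, Sqle 4.18, Mvd 3.72, Fdps 3.12, Mvk 1.97 and Lss 0.573. The ranges of neighbours in this order overlapped, except that every value of Fdft1 lay below every value of Idi1, and that Mvk lay below Fdps and Lss below Mvk in the same sense. The 8 tested members stood between the 18.0th percentile (Mvk) and the 70.5th percentile (Hmgcs1) of the levels of all genes tested. Summed over the 9 members, the level was 47.1, 41.8 and 47.2 FPKM in the atorvastatin libraries, against 42.5, 41.4 and 54.6 FPKM in the vehicle libraries. The atorvastatin sums lay inside the range of the vehicle sums, whose highest value came from vehicle library 3.

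**Figure D1:**
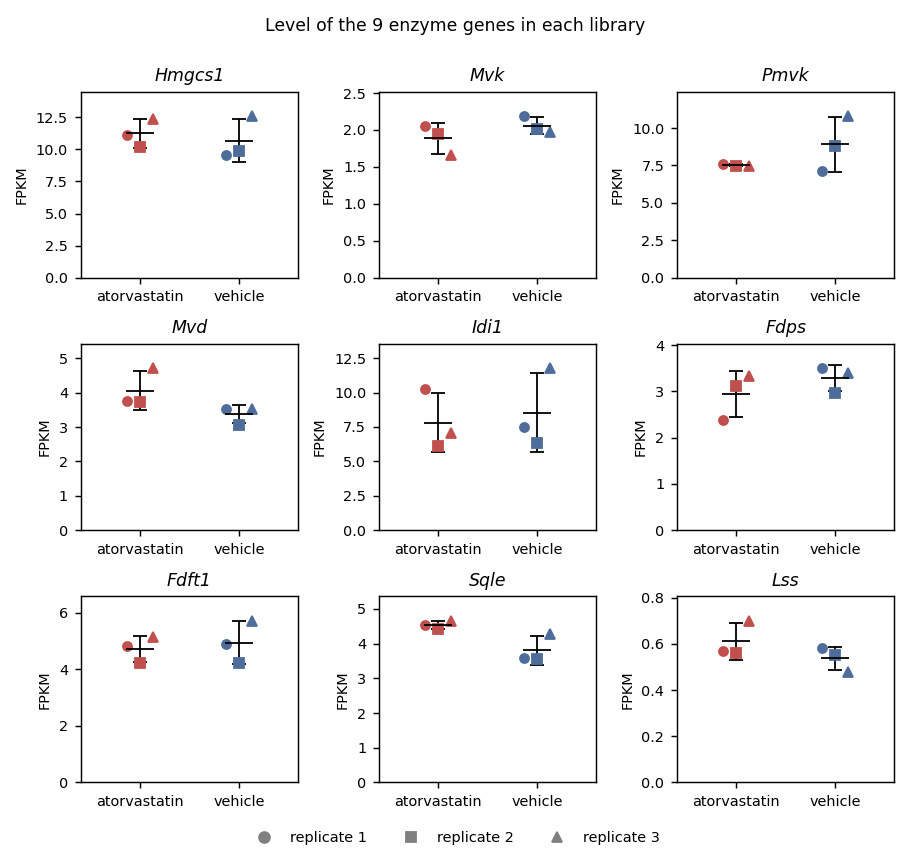
FPKM of each of the 9 genes (vertical axes, from 0) in the 3 atorvastatin libraries, left, and the 3 vehicle libraries, right; symbols mark the replicate number and black bars the mean and SD. Sqle and Mvd are the genes whose groups do not overlap, and Pmvk sits within a narrow band of 7.46 to 7.59 FPKM under atorvastatin.

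Hmgcs1 (ENSMUSG00000093930, mm10 chr13:119690379-119708260, plus strand) encodes the cytosolic HMG-CoA synthase, which condenses acetoacetyl-CoA with acetyl-CoA just ahead of the statin-blocked step. Its level was 11.1, 10.2 and 12.4 FPKM in the atorvastatin libraries, against 9.56, 9.88 and 12.6 FPKM in the vehicle libraries. The groups overlapped, and vehicle library 3 held the highest value of all. The difference was 0.07 on the log2(FPKM + 1) scale (SE 0.14, 95% interval -0.26 to 0.40, limma adjusted p = 0.909). With single libraries left out it ran from 0.00 (without vehicle library 1, and likewise without atorvastatin library 3) to 0.19 (without vehicle library 3), and it was 0.03 without vehicle library 2.

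Mvk (ENSMUSG00000041939, mm10 chr5:114444269-114460591, plus strand), mevalonate kinase, adds the initial phosphate to mevalonate. It had 2.06, 1.94 and 1.66 FPKM with atorvastatin, against 2.19, 2.01 and 1.97 FPKM with vehicle. Atorvastatin library 1 lay above vehicle libraries 2 and 3, so the groups overlapped. Its log2 difference was -0.08 (SE 0.11, 95% interval -0.34 to 0.18, limma adjusted p = 0.860), and it was -0.03 without atorvastatin library 3, -0.05 without vehicle library 1 and -0.13 without atorvastatin library 1. Pmvk (ENSMUSG00000027952, mm10 chr3:89454541-89469013, plus strand), phosphomevalonate kinase, adds the next phosphate. The atorvastatin libraries held 7.59, 7.46 and 7.48 FPKM, and the vehicle libraries 7.10, 8.81 and 10.8 FPKM. All atorvastatin values lay within the spread of the vehicle libraries, near its low end. The log2 difference was -0.20 (SE 0.15, 95% interval -0.56 to 0.16, limma adjusted p = 0.750). It was -0.34 (SE 0.14, unadjusted p of 0.0513 in limma) without vehicle library 1, and -0.07 (SE 0.12) without vehicle library 3.

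Mvd (ENSMUSG00000006517, mm10 chr8:122433601-122443422, minus strand), the decarboxylase that yields isopentenyl diphosphate, was 3.75, 3.72 and 4.71 FPKM in the atorvastatin libraries, against 3.53, 3.07 and 3.53 FPKM in the vehicle libraries. The groups did not overlap, although atorvastatin libraries 1 and 2 exceeded the highest vehicle value by little. The log2 difference was 0.21 (SE 0.12, 95% interval -0.08 to 0.49), with an unadjusted p of 0.136 and an adjusted p of 0.714 in limma. With single libraries left out it ran from 0.12 (without atorvastatin library 3) to 0.25 (without atorvastatin library 2). The groups of Mvd and of Sqle overlapped once the libraries were scaled to equal sums of FPKM, while the differences were then 0.26 for each. Immunoglobulin genes held 218356 of the 456064 FPKM of atorvastatin library 2, against 99388 to 158332 FPKM in the other libraries. With immunoglobulin, mitochondrial and ribosomal protein genes left out of the sums, 2 members stood apart.

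Idi1 (ENSMUSG00000058258, mm10 chr13:8885501-8892451, plus strand) encodes the isomerase that turns isopentenyl into dimethylallyl diphosphate. Its level was 10.3, 6.13 and 7.06 FPKM with atorvastatin, against 7.50, 6.32 and 11.8 FPKM with vehicle. A single library in each group, atorvastatin library 1 and vehicle library 3, stood well above the rest. The log2 difference was -0.10 with the widest interval of the tested members (SE 0.25, 95% interval -0.70 to 0.51, limma adjusted p = 0.936). It was -0.29 (SE 0.26) without atorvastatin library 1, -0.27 without vehicle library 2, -0.16 without vehicle library 1, -0.05 without atorvastatin library 3, 0.04 without atorvastatin library 2 and 0.13 (SE 0.21) without vehicle library 3.

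A processed pseudogene on another chromosome, Gm13502 (mm10 chr2:53696121-53696804), is 100% identical to an Idi1 transcript over 684 bases. Gm13502 was 0.17, 1.65 and 2.93 FPKM in the atorvastatin libraries, and 2.76, 2.35 and 0.31 FPKM in the vehicle libraries. Its lowest values came from the same 2 libraries in which Idi1 was highest. Among the remaining libraries the genes did not run opposite, and both were lowest in atorvastatin library 2. With its near copies added (the processed pseudogenes Gm13502 and Gm35570, at 95% identity or more over at least 200 bases; overlapping genes on the opposite strand were not added), Idi1 had 10.4, 7.88 and 9.99 FPKM with atorvastatin, against 10.3, 8.72 and 12.1 FPKM with vehicle. The coefficient of variation was then 14.5% with atorvastatin and 16.4% with vehicle, where Idi1 alone had 27.8% with atorvastatin and 33.6% with vehicle. The summed difference was -0.12 (SE 0.16, 95% interval -0.50 to 0.26, limma adjusted p = 0.861). The sources used here do not say how reads shared by such copies were assigned, so the single-gene values of Idi1 and Fdps are uncertain. The sums are uncertain too, because FPKM is scaled to length. Gm13502 spans 684 bases, and the exons of Idi1 cover 3505 bases in GENCODE. A read moved between them would change their FPKM unequally, so a sum and its spread do not restore those of the gene. The same limit applies to the sums of Fdps below.

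Fdps (ENSMUSG00000059743, mm10 chr3:89093588-89101959, minus strand), farnesyl diphosphate synthase, stands where the sterol and prenylation branches part. It had 2.39, 3.11 and 3.34 FPKM in the atorvastatin libraries, against 3.50, 2.96 and 3.40 FPKM in the vehicle libraries. The groups overlapped, and atorvastatin library 1 held the lowest value. The log2 difference was -0.12 (SE 0.13, 95% interval -0.44 to 0.19, limma adjusted p = 0.824), and it was -0.02 without that library and -0.20 without atorvastatin library 3. Gm43738 is an annotated gene that overlaps Fdps itself over 7512 bases on the same strand. It shares 929 bases with an Fdps transcript at 100% identity. It was at 0.85 FPKM in atorvastatin library 1 and listed at 0 in the other 5 libraries. The processed pseudogene Gm3571 (98.9% identity over 1062 bases) had 1.40, 1.64 and 1.31 FPKM with atorvastatin, against 0.96, 1.37 and 2.28 FPKM with vehicle. With Gm43738 and all near-copy pseudogenes added, Fdps had 4.92, 5.32 and 5.29 FPKM with atorvastatin, against 4.60, 5.02 and 5.82 FPKM with vehicle. The difference turned to 0.01 (SE 0.11, 95% interval -0.26 to 0.28, limma adjusted p = 0.986). The coefficient of variation of the sum was 4.30% with atorvastatin and 12.0% with vehicle, where Fdps alone had 16.8% with atorvastatin and 8.74% with vehicle, so the summing narrowed the atorvastatin group only.

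**Figure D2:**
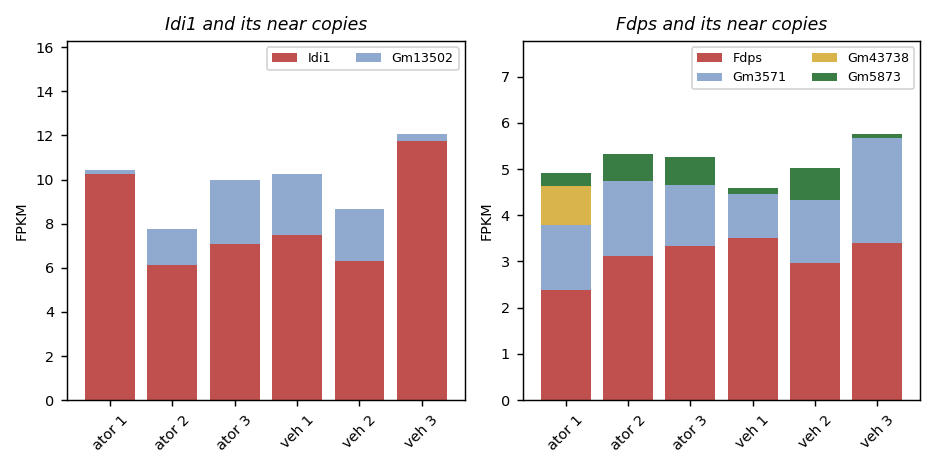
Stacked FPKM of Idi1 (left) and Fdps (right) with the near copies whose FPKM sum over the libraries exceeds 0.3, for atorvastatin (ator) and vehicle (veh) libraries 1 to 3. Gm13502 nearly vanishes in atorvastatin library 1 and vehicle library 3, where Idi1 is highest. Gm43738, which overlaps Fdps itself on the same strand, appears in atorvastatin library 1 alone, where Fdps is lowest.

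Fdft1 (ENSMUSG00000021273, mm10 chr14:63145150-63179578, minus strand), squalene synthase, makes the entry into sterol synthesis proper by joining farnesyl units. Its level was 4.81, 4.23 and 5.14 FPKM in the atorvastatin libraries, against 4.90, 4.22 and 5.72 FPKM in the vehicle libraries. The groups overlapped over nearly their whole range. The log2 difference was -0.05 (SE 0.13, 95% interval -0.36 to 0.26, limma adjusted p = 0.938). It was -0.14 (SE 0.13) without vehicle library 2, -0.10 without atorvastatin library 3, 0.01 without atorvastatin library 2 and 0.04 (SE 0.12) without vehicle library 3. The end of Fdft1 lies over 774 bases of Ctsb, the gene of cathepsin B, on the opposite strand. Ctsb had 111, 106 and 109 FPKM with atorvastatin and 88.1, 95.2 and 118 FPKM with vehicle. The sources used here do not state whether counting used strand, so reads of both genes may not be told apart there.

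Sqle (ENSMUSG00000022351, mm10 chr15:59315077-59331192, plus strand), squalene epoxidase, catalyses a rate-limiting oxidation of sterol synthesis. It had 4.54, 4.42 and 4.66 FPKM in the atorvastatin libraries, against 3.59, 3.55 and 4.29 FPKM in the vehicle libraries. The groups did not overlap, and the atorvastatin libraries kept within a coefficient of variation of 2.64%, against 10.9% among the vehicle libraries. The log2 difference was 0.21 (SE 0.11, 95% interval -0.05 to 0.46), with an unadjusted p of 0.0955 and an adjusted p of 0.696 in limma, the smallest of the members. With single libraries left out the difference ran from 0.17 (without vehicle library 2) to 0.28 (without vehicle library 3, SE 0.09). Without vehicle library 3 the unadjusted p of Sqle was 0.0264 and the smallest adjusted p of any member 0.587 in limma. In that fit 1125 of 13368 genes had an unadjusted p under 0.05.

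Lss (ENSMUSG00000033105, mm10 chr10:76531588-76557138, plus strand), which folds squalene epoxide into lanosterol, lay below the minimum of 1 FPKM in at least 3 libraries and was left out of the fit. It had 0.57, 0.56 and 0.70 FPKM with atorvastatin, against 0.58, 0.55 and 0.48 FPKM with vehicle. Atorvastatin library 3 was the highest and vehicle library 3 the lowest, and the other 4 libraries were close to each other. The ratio of the group means was 1.14, and the exact two-sided permutation test gave p = 0.4, where 0.1 is the smallest p that 3 against 3 libraries allow. When genes of any level were fitted, its log2 difference was 0.07 (SE 0.09, 95% interval -0.16 to 0.29, limma adjusted p = 0.862).

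The intervals bound the size of a change that these libraries leave room for. On the log2(FPKM + 1) scale the 95% intervals of all 8 tested members lay within 1 unit of 0, as they did for 89.8% of all genes tested. That scale understates changes of genes at a few FPKM, so the ratio was also taken with a pseudocount of 0.01. Sqle was then 1.20-fold (95% interval 0.968 to 1.48), Mvd 1.20-fold (0.936 to 1.53), Hmgcs1 1.06-fold (0.822 to 1.36) and Pmvk 0.856-fold (0.649 to 1.13) in atorvastatin over vehicle libraries. For the 8 tested members the limits ran from 0.578 (Idi1) to 1.53 (Mvd), all within a 2-fold change. The number of fragments behind each value is unknown, and 3 libraries a group limit the precision.

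**Figure D3:**
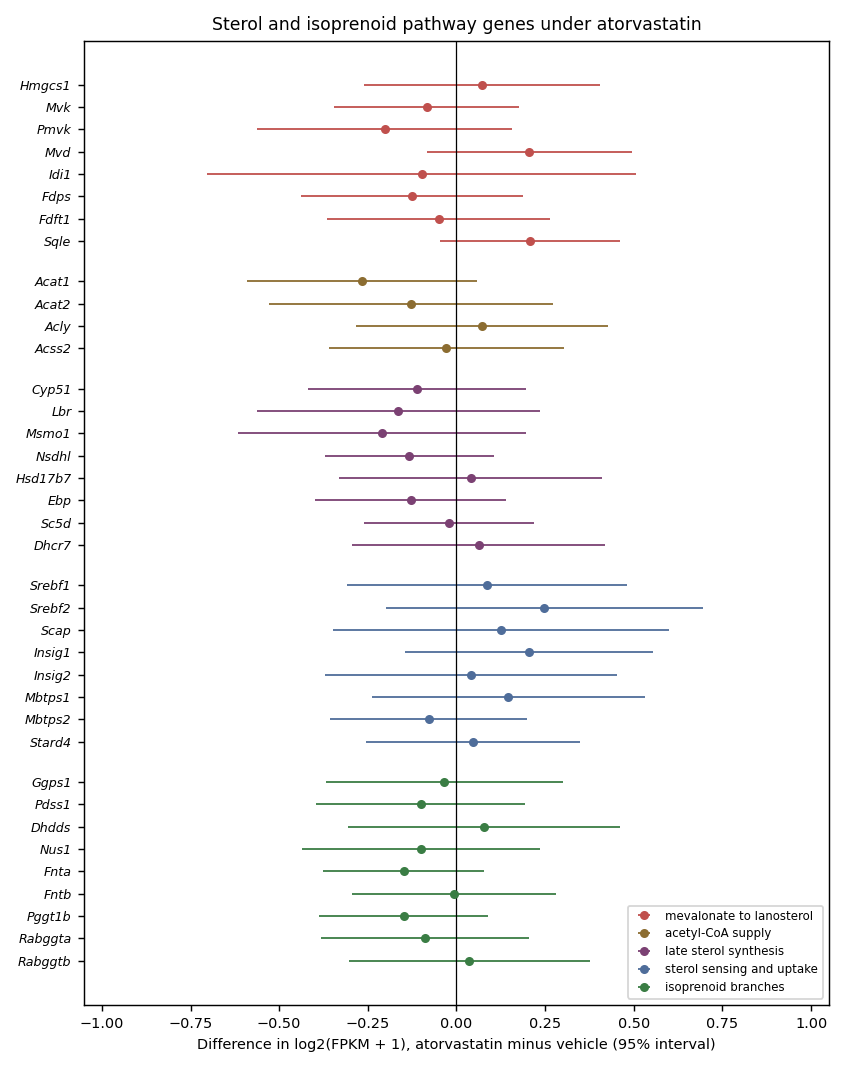
Difference in log2(FPKM + 1), atorvastatin minus vehicle, with its 95% interval (horizontal axis) for the 8 tested members and 29 other tested genes of the pathway, coloured by list. The interval of each gene shown crosses 0.

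Of 28 pairs of the 8 tested members, 17 had a Pearson's r above 0 over the 6 libraries and 11 below 0, from 0.78 (Idi1 and Fdft1) to -0.77 (Mvk and Mvd), as a description with no test. Vehicle library 3 stood apart from the rest in general, with a mean Pearson's r across genes of 0.944 to the other libraries, against 0.957 to 0.961 for each of the other 5. Measured from each gene's own mean over the 6 libraries, the median of the 8 tested members was 0.02, -0.05 and 0.08 log2 units in the atorvastatin libraries, against -0.06, -0.14 and 0.15 in the vehicle libraries. Vehicle library 3 was thus the highest and vehicle library 2 the lowest, both from the same group. Idi1 (0.51) and Pmvk (0.37) were farthest above their own means in vehicle library 3.

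**Figure D4:**
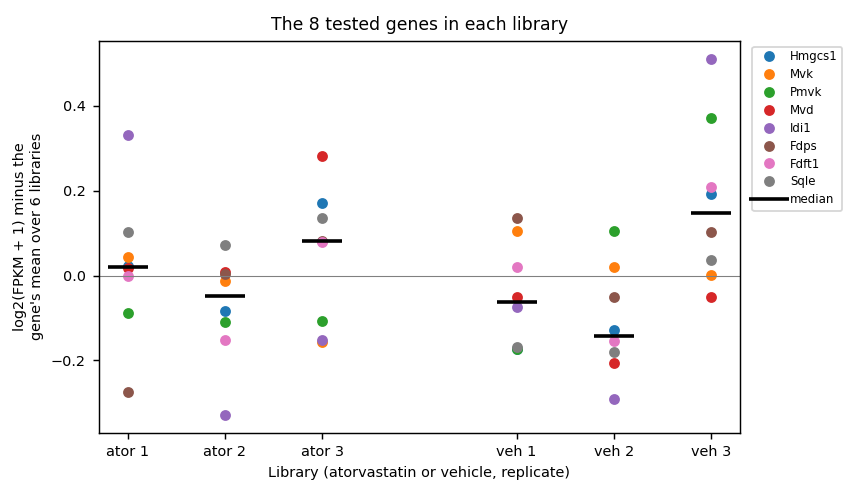
Each tested member's log2(FPKM + 1) minus its mean over the 6 libraries (vertical axis) in atorvastatin (ator) and vehicle (veh) libraries; black bars are the medians of the 8 genes. Vehicle library 3 has the highest median, 0.15, and vehicle library 2 the lowest, -0.14.

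Outside the members, the protein-coding genes whose levels followed the mean of the members' standardised values most closely over the 6 libraries were Clk4, a kinase of splicing factors (Pearson's r = 0.997), Ppp1r2, an inhibitor of protein phosphatase 1 (0.994), Tmem33 (0.992), Abi1, a regulator of actin (0.992), and Ltv1, a ribosome assembly factor (0.992). These are descriptions with no test: the points share 6 libraries, and 358 of the 11492 genes compared reached 0.9. Without vehicle libraries 2 and 3, the farthest from the median, the r of these 5 genes, picked over all 6 libraries, was between 0.961 and 0.987. Each of the 5 genes was highest in vehicle library 3 and lowest in vehicle library 2, as was the members' mean by which they were picked. Clk4 had 12.8, 12.0 and 14.0 FPKM with atorvastatin and 12.4, 10.8 and 16.3 FPKM with vehicle, a log2 difference of -0.01 (SE 0.16).

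Of 10 listed markers of colonic epithelium 7 were tested, and all 7 had differences below 0, as did 7208 of all 13590 genes. The summed levels of the 10 were 19.1 to 46.9 FPKM in atorvastatin libraries and 34.5 to 47.9 FPKM in vehicle libraries. Epcam, the most abundant of them, had 10.33, 13.6 and 8.27 FPKM with atorvastatin, against 11.03, 13.05 and 13.05 FPKM with vehicle. Slc26a3, a marker of mature colonocytes, was at 0.07 FPKM or less in every library. The part of these cells in the members' values was not tested. Idi2, the paralog of Idi1, was at 0.37 FPKM or less and below the filter.

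Genes that supply acetyl-CoA units gave 0 of 4 at an unadjusted p under 0.05, against 7.17% of all genes. Acly, ATP citrate lyase and the most abundant of them, had 26.4 ± 0.708 FPKM with atorvastatin and 25.3 ± 4.43 with vehicle (SD, n = 3 each), and Acat1, the mitochondrial acetoacetyl-CoA thiolase, had 6.52 ± 0.881 FPKM with atorvastatin and 8.04 ± 0.971 with vehicle. In 1 of the 4, Acat1, the groups did not overlap and were lower with atorvastatin, a state that 8.85% of all genes shared. Its log2 difference was -0.27 (SE 0.14), with an unadjusted p of 0.0921 and an adjusted p of 0.696 in limma.

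Of 9 listed enzymes after lanosterol, 8 were tested, and 6 of these had differences below 0, as did 7208 of all 13590 genes. The median was -0.12 against -0.02 for all genes. An unadjusted p under 0.05 was reached by 0 of the 8, against 7.17% of all genes. Lbr, a sterol reductase that is also a nuclear envelope protein, had 12.9 ± 0.840 FPKM with atorvastatin and 14.8 ± 3.11 FPKM with vehicle (SD, n = 3 each). Cyp51, which acts on lanosterol itself, had 9.95, 8.32 and 9.03 FPKM with atorvastatin, against 9.73, 8.74 and 11.3 FPKM with vehicle. The summed level of the 9 enzymes was 46.30, 44.95 and 45.87 FPKM in the atorvastatin libraries, against 50.95, 51.05 and 48.59 FPKM in the vehicle libraries, and these sums did not overlap. They did overlap once the libraries were scaled to equal sums of FPKM, at 39.9 to 52.2 with atorvastatin and 46.7 to 50.7 with vehicle. The value of 39.9 came from atorvastatin library 2, the library with the most immunoglobulin FPKM. In 1 of the 8 tested enzymes, Nsdhl, the groups did not overlap and were lower with atorvastatin, a state that 8.85% of all genes shared.

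Of 8 tested genes that sense or transport sterols, 7 had differences above 0, against 47% of all genes, with a median of 0.11. An unadjusted p under 0.05 was reached by 0 of the 8, against 7.17% of all genes. Without vehicle library 3 the count above 0 was 4 of 8 and the median 0.06. Srebf2, the gene of SREBP2, had 24.4, 22.6 and 23.5 FPKM in the atorvastatin libraries, against 17.0, 26.6 and 16.8 FPKM in the vehicle libraries. The atorvastatin values lay between those of vehicle library 2 and of the other vehicle libraries. Insig1, a sterol-regulated anchor of the SREBP complex and itself an SREBP target, had 26.5, 20.7 and 26.9 FPKM with atorvastatin, against 20.9, 19.1 and 23.7 FPKM with vehicle. The groups overlapped in both genes, with log2 differences of 0.25 (SE 0.19) for Srebf2 and 0.20 (SE 0.15) for Insig1.

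In the isoprenoid branches that leave the pathway at farnesyl diphosphate, 9 of 10 genes were tested. An unadjusted p under 0.05 was reached by 0 of the 9, against 7.17% of all genes. Differences were below 0 in 7 of the 9, and in 7208 of all 13590 genes. The count of 7 became 9 of 9 without atorvastatin library 3 and 5 of 9 without vehicle library 3. The groups did not overlap in 2 of the 9, Fnta and Pggt1b, both subunits of prenyltransferases and both lower with atorvastatin, against 8.85% of all genes. Fnta had 9.63 ± 0.385 FPKM with atorvastatin and 10.8 ± 0.195 with vehicle, and Pggt1b 3.25 ± 0.226 with atorvastatin and 3.71 ± 0.142 with vehicle (SD, n = 3 each). Ggps1, which makes geranylgeranyl diphosphate, had 5.91 ± 0.411 FPKM with atorvastatin and 6.13 ± 1.13 FPKM with vehicle (SD, n = 3 each). The most abundant genes were Rabggtb, a subunit that prenylates Rab proteins (13.4 ± 1.83 FPKM with atorvastatin and 13.1 ± 1.48 with vehicle), and Nus1, a subunit for dolichol synthesis (12.1 ± 0.788 FPKM with atorvastatin and 13.2 ± 2.22 with vehicle).

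The RNA carried the markers of its label and of its neighbours. Plasma cell markers summed to 2123 to 4521 FPKM with atorvastatin and 1631 to 3668 FPKM with vehicle, led by Jchain, and macrophage markers to 214 to 232 FPKM with atorvastatin and 129 to 278 FPKM with vehicle, led by Lyz2 and C1qb. Fibroblast, smooth muscle and endothelial markers were present too. Of the adipocyte markers, Plin1 was at 0.02 FPKM or less, Adipoq at 0.23 or less and Cidec at 0.24 or less. Fabp4 had 5.93 to 11.71 FPKM and Lpl 1.67 to 5.02 FPKM over the libraries. On the deposited scale the sums of 4 such lists did not overlap between groups. Of all 13590 genes tested, 6382 had differences above 0 and 7208 below 0. B cell markers, all 8 with differences below 0, summed to 281 to 305 FPKM with atorvastatin and 351 to 470 FPKM with vehicle. Neutrophil markers, 5 tested of 6 and all below 0, summed to 18.0 to 25.0 FPKM with atorvastatin and 25.2 to 32.6 FPKM with vehicle. Stress response genes, all 10 above 0, summed to 6404 to 8922 FPKM with atorvastatin and 5688 to 5853 FPKM with vehicle. Ribosomal protein genes summed to 18922 to 22861 FPKM with atorvastatin and 23335 to 29106 FPKM with vehicle. Once libraries were scaled to equal sums of FPKM, the B cell sums stayed apart, at 250 to 328 with atorvastatin and 337 to 461 with vehicle, while the neutrophil, stress response and ribosomal protein sums overlapped. The part of these shifts in the values of the members was not tested.

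**Figure D5:**
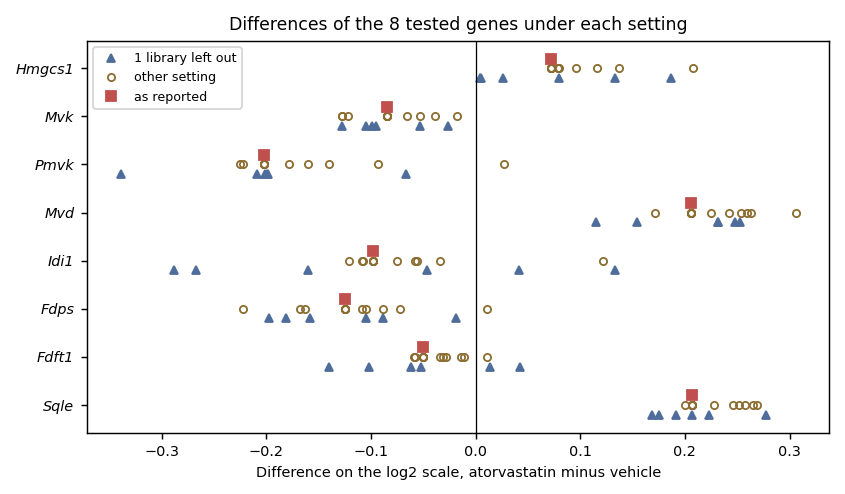
Difference on the log2 scale, atorvastatin minus vehicle (horizontal axis), of the 8 tested members as reported (squares), under each of 13 other settings (circles) and with each of the 6 libraries left out (triangles). Hmgcs1, Mvd and Sqle stay above 0 and Mvk below 0 under all of them, and Pmvk, Idi1, Fdps and Fdft1 cross 0 under at least 1. Settings that change only the filter, the gene class, the variance moderation or the block repeat the reported differences and cannot move them.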

How the data were processed

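The authors deposited 1 table of FPKM per library, with 2 decimals, per the file headers. The submitters' processing notes name FastQC 0.11.2, Bowtie and the build mm10; the sources used here do not give the quantifier, annotation or strand setting. Fragment counts and depth are unknown, so no count test was run. Sums of FPKM were 355787 to 456064 per library, and 13303 to 13703 genes reached 1 FPKM.

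Symbols came from GENCODE mouse M21, which gives one to 55141 of 55401 IDs. The 13590 genes that reached 1 FPKM in 3 or more libraries were fitted as log2(FPKM + 1) with limma 3.58.1 (limma-trend, R 4.3.3), and adjusted over all of them by Benjamini-Hochberg at 0.05. The script was tested on simulated data. Members and lists were chosen with earlier results of these data known. Genes to name were fixed by rule: all members, set genes of the pathway and the 5 genes most like the members. Of each pathway list, the 2 most abundant and any gene at p under 0.05 were also named by rule. Among the pathway genes, Nsdhl, Fnta and Pggt1b were named outside this rule, because their groups did not overlap. Some listed genes are not reported here and were left out of the lists' counts and sums. Lss, below the filter, got an exact permutation test. Pseudocounts, filters, scalings, a length trend, variance settings, gene classes, the replicate block and single libraries left out were alternatives. Summing near copies, and lists under equal sums or with libraries left out, were chosen after the data were seen. The summed near copies were processed pseudogenes and Gm43738, which overlaps Fdps on the same strand (BLASTN, 95% identity over 200 bases).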

Additional observations from a re-analysis of the deposited data

How the results depend on the processing

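No member passed the threshold under any of the 13 other settings or with any library left out. Over all genes the count past it was 0 in the reported fit, 4 with array weights, 0 to 2 with single libraries left out (1 without atorvastatin library 1, 2 without atorvastatin library 3) and 0 otherwise. Changing the filter on low values, robust variance moderation, keeping protein-coding genes alone or a replicate block cannot alter a member's difference. Summing near copies alters only Idi1, Fdps and Fdft1. With these unalterable cases counted in, 100 of 104 member differences under the other settings kept their sign. So did 44 of 48 with a library left out. The exceptions were Fdft1 with equal sums per library (0.0104), Pmvk (0.0275) and Idi1 (0.122) with array weights, Fdps with near copies summed (0.0112), and, without 1 library, Idi1 (range -0.29 to 0.13) and Fdft1 (range -0.14 to 0.0421), which turned positive without atorvastatin library 2 or vehicle library 3. The groups overlapped in all members (0 apart) with equal sums, and 2 stood apart under the other scalings. For these the cause was not tested. The unadjusted limma p of Sqle ran from 0.00631 (array weights) to 0.239 (without vehicle library 1). That of Mvd ran from 0.0390 (length trend removed) to 0.402 (without atorvastatin library 3). With array weights 3413 of all 13590 genes had an unadjusted p under 0.05, against 974 in the reported fit. With the length trend removed the count was 1049. Same-numbered libraries did not deviate together (r = -0.11, 0.14 and -0.02), and with the replicate number as a block 0 genes passed, the differences were the same and Sqle had an unadjusted p of 0.135.
The difference in summed FPKM of the 9 members, atorvastatin minus vehicle, was -0.793, and it ran from -3.17 (without vehicle library 2) to 3.42 (without vehicle library 3). The 3 libraries per group and the unknown depth limit what can be seen.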

Other observations

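Upstream of Mvk, the 4 ATTGG matches (CCAAT on the opposite strand) began 173, 120, 67 and 14 bases before the annotated start, each 53 bases from the next. This is a description of the reference sequence of 1 gene, with no test.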
